A study of Drosophila melanogaster with 3 samples.

Results

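The genes described here encode cuticular proteins of Drosophila melanogaster: the Cpr genes, whose symbols start with Cpr and a digit, and the Tweedle genes, whose symbols start with Twdl. Taken by symbol among the protein-coding genes of the Ensembl annotation on dm6, they number 95 of 13945, of which 70 are Cpr genes and 25 are Twdl genes. The rule uses symbols only, so cuticular protein genes with other names (the Lcp, Ccp and Edg genes, for example) are set beside them below and are not counted among them. The assay was chromatin immunoprecipitation followed by sequencing (ChIP-seq) for GFP in whole prepupae of pooled sexes and unknown age. The animals came from 1 transgenic line in which the zinc-finger protein Ouib (CG11762) has GFP joined to its C-terminal end. All 3 samples are biological replicates of this 1 group. The peak calls were made with control alignments. No untagged or other control library was analysed here, so no value below is set beside one from control animals. Signal from a few strongly marked cells and weak signal from many cells cannot be told apart in whole animals.

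Insect cuticle is laid down outside the epidermis as chitin fibres embedded in protein. Cpr proteins are named for the Rebers and Riddiford consensus, a stretch that binds chitin, and Tweedle proteins form a separate family of secreted cuticle proteins. Pulses of ecdysone start each moult, and sets of these genes are switched on in turn by transcription factors of the hormone cascade as larval, prepupal, pupal and adult cuticle is made. Ouib is best known from the prothoracic gland, the source of ecdysone. Many cuticular protein genes lie side by side in tandem clusters.

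The members are short genes with few annotated starts. Their median length was 1088 bp, against 2166 bp for all protein-coding genes, and 91.6% of them had a single annotated transcription start site (TSS), against 73.5%. When members at most 20000 bp apart were joined, the 95 genes fell into 42 loci. Of these, 13 were clusters of 3 or more members holding 64 genes, 2 were pairs and 27 were single genes. Chromosome arm 3L holds 35 members, 3R 24, 2R 22, X 8 and 2L 6.

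Peaks at the starts of cuticular protein genes were few. In the optimal list, the authors' list of 5048 reproducible peaks, a summit lay within 1000 bp of a start for 2 of 95 members (2.11%) and for 18.0% of all protein-coding genes. Both were Cpr genes, Cpr72Eb and Cpr62Ba (2 of 70), and none of the 25 Twdl genes had one. Counted once per locus, 2 of 42 loci and 2 of the 13 clusters had such a summit. Coding genes at large were not grouped into loci, so counts by locus have no like background. Within 500 bp of a TSS no member had an optimal summit (0 of 95), against 14.9% of all coding genes. Within 5000 bp, 21 members (22.1%) in 14 loci had one, against 36.7%. No test was made, since the series holds 1 group and neighbouring members share sequence and peaks.

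**Figure D1:**
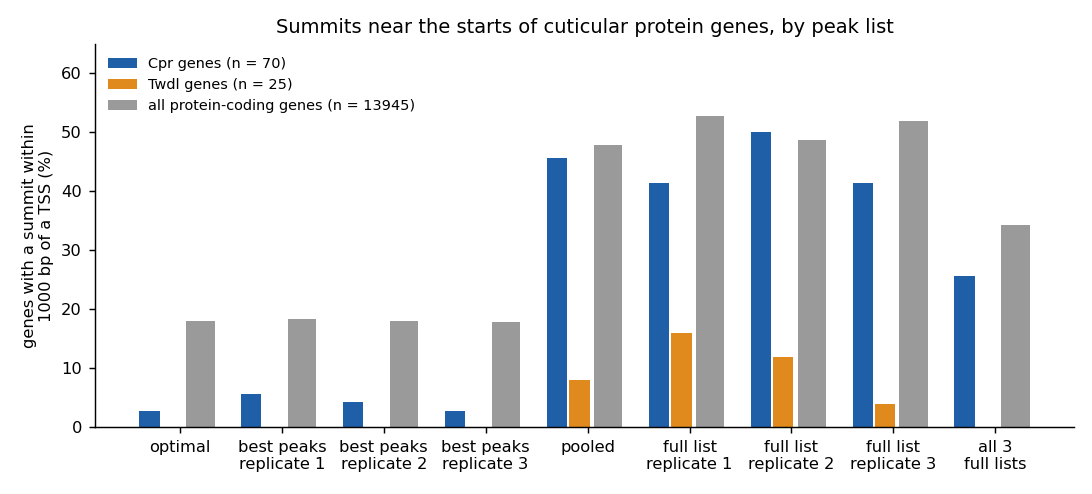
Bars give the percentage of genes with a peak summit within 1000 bp of a TSS for Cpr genes (blue, n = 70), Twdl genes (orange, n = 25) and all protein-coding genes (grey, n = 13945), in the optimal list, the 5048 best peaks of each replicate, the pooled list, the full list of each replicate, and all 3 full lists at once. Cpr bars are at 2.86% in the optimal list and 45.7% in the pooled list, against grey bars of 18.0% and 47.9%, and no Twdl bar is above 16.0%.

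The strongest of the peaks lay 542 bp upstream of Cpr72Eb (FBgn0036618), between Cpr72Ea and Cpr72Eb in a cluster of 3 genes in which Cpr72Ec, the other member, encodes a protein of the corneal lens. It spanned chr3L:16364159-16364554 and ranked 798 of 5048 by the authors' signal, 202 on a list whose median was 102. Its signal was 1.84 times the median of the 5048 best peaks in replicate 1, 1.95 times in replicate 2 and 1.95 times in replicate 3, a mean of 1.91 ± 0.0631 (SD, n = 3). All 3 replicates thus placed it above the median of their best peaks, with summits within 18 bp of each other. A second optimal peak lay 3023 bp away on the other side of Cpr72Ea, from chr3L:16361136-16361531 and 1269 bp upstream of that gene, with no gene across its summit. It ranked 1516, at 1.16, 1.45 and 1.29 times the replicate medians (mean 1.30 ± 0.142, SD, n = 3). The reference sequence of 200 bp at both summits and of the Cpr72Eb promoter (250 bp before the start and 50 bp from it) is shown because these optimal peaks both lie upstream of a member of this cluster, while the promoter itself lies outside them. Capitals mark TATAAAA or its reverse complement and GAGAG or CTCTC. All are on the plus strand of dm6, at chr3L:16364258-16364457, chr3L:16361235-16361434 and chr3L:16364649-16364948.
Summit upstream of Cpr72Eb: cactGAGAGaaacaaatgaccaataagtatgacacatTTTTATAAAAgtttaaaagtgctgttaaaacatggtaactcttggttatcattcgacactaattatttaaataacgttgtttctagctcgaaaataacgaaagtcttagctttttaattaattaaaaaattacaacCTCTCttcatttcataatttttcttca
Summit upstream of Cpr72Ea: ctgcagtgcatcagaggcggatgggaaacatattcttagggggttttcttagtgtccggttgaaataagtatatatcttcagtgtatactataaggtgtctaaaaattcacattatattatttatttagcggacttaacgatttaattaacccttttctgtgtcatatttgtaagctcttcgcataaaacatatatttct
Promoter of Cpr72Eb: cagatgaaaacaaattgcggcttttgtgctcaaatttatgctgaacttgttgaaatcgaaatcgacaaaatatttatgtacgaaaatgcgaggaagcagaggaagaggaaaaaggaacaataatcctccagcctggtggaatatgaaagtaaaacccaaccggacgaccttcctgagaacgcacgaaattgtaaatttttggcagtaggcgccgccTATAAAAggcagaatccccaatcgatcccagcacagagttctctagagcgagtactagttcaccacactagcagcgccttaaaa
The summit window of Cpr72Eb had a GC content of 26.5%, that of Cpr72Ea 33.0%, and the promoter 43.0%. TATAAAA was in the first, overlapped by its reverse complement, and in the promoter. Of all optimal summit windows of 200 bp, 18.0% held TATAAAA on either strand and 21.8% held GAGAG, and their mean GC content was 34.4%.

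The peak of Cpr62Ba (FBgn0035279) lay inside the gene. This gene has 2 annotated starts, and the summit, in an intron of the longer transcript, was 852 bp upstream of the inner start, at chr3L:1829596-1829991. It ranked 3344 of the optimal peaks, and stood at 0.688 times the median in replicate 1, 0.696 times in replicate 2 and 1.26 times in replicate 3 (mean 0.882 ± 0.329, SD, n = 3). Replicate 3 stood above the other replicates, and the summits spread over 130 bp. When only the outermost start of each gene was used, this peak no longer counted, and 1 of 95 members remained, against 16.0% of all coding genes.

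Besides these, 3 optimal summits lay in cluster spans (from the first member's start to the last member's end, with 1000 bp on each side), and all were intergenic. The first lay between the divergent starts of Cpr65Eb and Cpr65Ec, 2197 bp and 2220 bp away, at chr3L:7090786-7091181. Its signal was 0.934, 0.880 and 0.707 times the replicate median in replicates 1 to 3 (mean 0.840 ± 0.119, SD, n = 3). The second lay 1641 bp from the start of Cpr76Ba and past its 3′ end, 0.861 kb outside the cluster of Cpr76Ba to Cpr76Bd, at chr3L:19516493-19516888. It stood at 0.693, 1.07 and 0.745 times (mean 0.835 ± 0.201, SD, n = 3). The last lay within the cluster of Cpr65Au to Cpr65Az at chr3L:6155095-6155490, 3337 bp from the start of Cpr65Ay but closer to CG13297, a gene outside both families, at 2084 bp. There replicate 2 was low, at 0.455 times, and below its 5048 best peaks, against 0.923 and 1.01 times in replicates 1 and 3 (mean 0.796 ± 0.298, SD, n = 3). All these peaks were weaker than that of Cpr72Eb in every replicate. The windows of 200 bp on the plus strand at the summits of Cpr62Ba (chr3L:1829695-1829894) and Cpr65Eb (chr3L:7090885-7091084) are shown for comparison with those of the Cpr72E cluster, with the same marks.
Summit in Cpr62Ba: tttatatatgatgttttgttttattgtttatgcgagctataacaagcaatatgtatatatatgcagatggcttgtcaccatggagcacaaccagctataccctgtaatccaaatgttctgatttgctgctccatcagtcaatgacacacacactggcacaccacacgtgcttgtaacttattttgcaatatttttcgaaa
Summit between Cpr65Eb and Cpr65Ec: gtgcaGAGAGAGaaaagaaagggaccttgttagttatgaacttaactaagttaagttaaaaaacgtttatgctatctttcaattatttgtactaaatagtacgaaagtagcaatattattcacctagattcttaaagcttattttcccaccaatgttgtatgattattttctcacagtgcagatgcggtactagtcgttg
Neither holds TATAAAA, and that of Cpr65Eb holds GAGAG. Their GC contents were 36.5% and 32.5%.

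**Figure D2:**
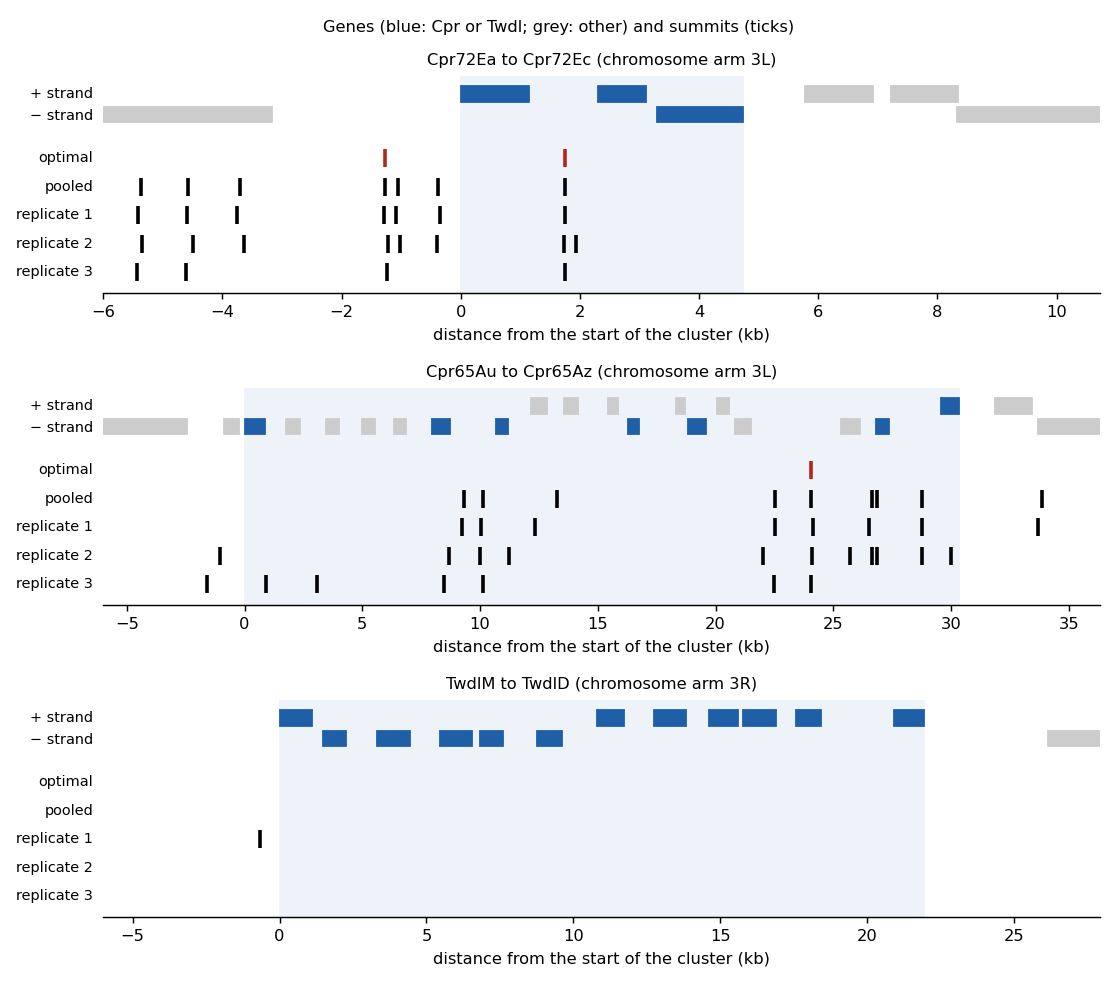
Each panel maps 1 cluster with 6 kb on each side: boxes are genes on the plus and minus strand (blue for Cpr or Twdl, grey for other coding genes), the shaded band is the cluster, and ticks are summits of the optimal list (red), the pooled list and the 3 replicate lists (black), by distance from the start of the cluster in kb. The Cpr72E cluster has optimal summits beside and inside it, the Cpr65A cluster has 1, and no list has a summit inside the span of the 12 Twdl genes.

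The most visible difference from other genes was in the 500 bp just upstream of the start. Members had no optimal summit within 500 bp on either side of the 5′ end, and between 0 and 3.16 per 100 genes in the other intervals of 500 bp out to 5 kb, each value resting on 3 summits or fewer. All protein-coding genes had 10.9 per 100 genes in the upstream 500 bp and between 1.91 and 2.45 per 100 in any other interval. In the full lists of 30000 peaks, which hold background too, members had 15.1 ± 2.67 summits per 100 genes in the upstream 500 bp (SD, n = 3 replicates), against 31.4 ± 1.39 for all coding genes. In the 500 bp downstream of the start they had 5.60 ± 4.73, against 15.5 ± 2.57. From 1000 to 500 bp upstream the values overlapped, at 15.1 ± 4.76 for members and 12.7 ± 1.02 for all coding genes. From 1500 to 1000 bp upstream members had 16.5 ± 6.43, against 11.9 ± 0.709. In the full lists members were thus about as high across the 1500 bp before the start, and lower in most other intervals. A rise confined to the upstream 500 bp, seen over coding genes as a whole, was not seen over members at this number of genes.

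**Figure D3:**
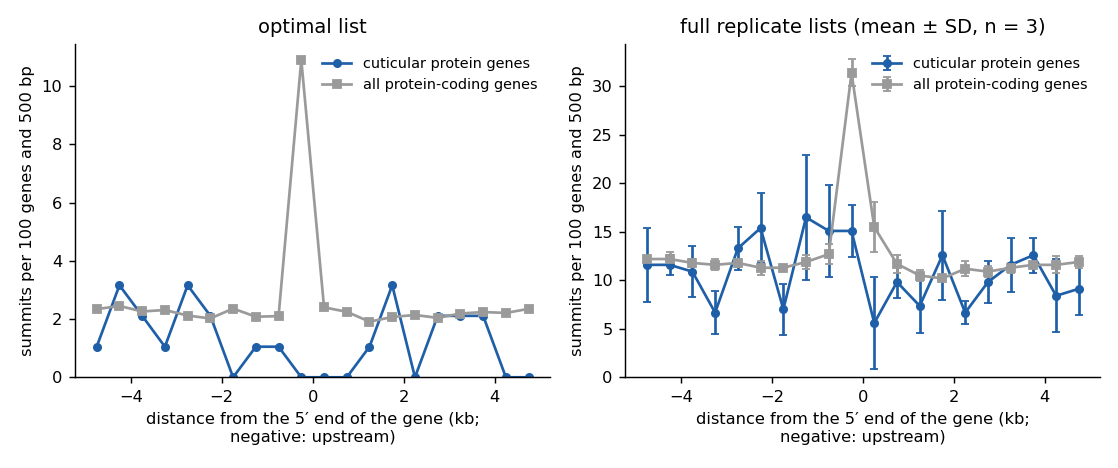
Summits per 100 genes in intervals of 500 bp, by distance from the 5′ end of the gene in kb (negative values upstream), for the 95 members (blue circles) and all protein-coding genes (grey squares). The left panel is the optimal list and the right panel the mean ± SD of the 3 full replicate lists. Just upstream of the start the blue curve is at 0 on the left and 15.1 on the right, and the grey curve at 10.9 and 31.4.

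Members lay farther from optimal summits than coding genes as a whole. The median distance from a member's nearest TSS to the nearest optimal summit was 15.5 kb, against 8.66 kb for all coding genes. It was 13.0 kb for Cpr genes and 20.8 kb for Twdl genes. With the 5048 best peaks of each replicate in place of the optimal list, the members' median was 15.5, 15.1 and 17.0 kb, against 8.58, 8.49 and 8.83 kb for all coding genes, so every replicate gave the same order. More than 10 kb from any optimal summit lay 65.3% of members, against 46.3% of coding genes. Of the 21 members within 5000 bp of an optimal summit, several shared one, and they were reached by 15 summits. After Cpr72Eb, Cpr62Ba and Cpr72Ea the nearest were Cpr51A at 1420 bp, Cpr76Ba at 1641 bp and Cpr97Ea at 1797 bp. The 15 summits ranked from 57 to 5025, with a median rank of 2747. The summit of rank 57 lay 3967 bp from Cpr78Cc, but only 80 bp from a TSS of CG11309, which belongs to neither family.

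**Figure D4:**
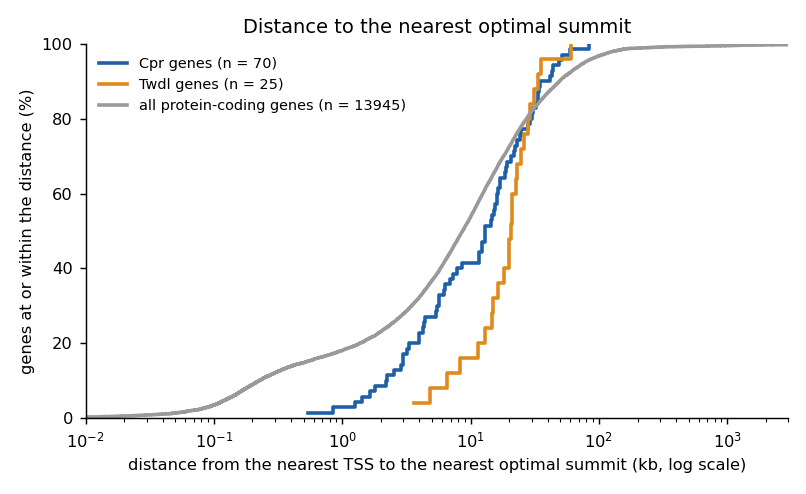
Cumulative percentage of genes whose nearest TSS lies within a given distance of an optimal summit (kb, log scale), for Cpr genes (blue, n = 70), Twdl genes (orange, n = 25) and all protein-coding genes (grey, n = 13945). The medians are 13.0, 20.8 and 8.66 kb, and the blue and orange curves begin at 0.542 kb and 3.66 kb.

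Over whole clusters, optimal summits were sparser than on the chromosome arms, and 8 of the 13 clusters had none. The 13 spans cover 239 kb with 5 optimal summits, or 2.09 per 100 kb, against 3.77 per 100 kb over the arms, a difference that rests on those 5. The Cpr clusters of 5 or more genes included Cpr47Ea to Cpr47Eg, with 7 members over 26.7 kb, and Cpr49Aa to Cpr49Ah, with 8 over 38.5 kb. The 47E cluster lay in a stretch of 61.3 kb without an optimal summit, and the 49A cluster in a stretch of 101 kb. Across the arms the median gap between neighbouring optimal summits was 7.85 kb, and 10% of gaps exceeded 59.1 kb (a stretch that holds a whole cluster has a least length of its own, so the values are set side by side only). In the full lists the 47E cluster nevertheless held 7, 8 and 6 summits in replicates 1 to 3, and the 49A cluster 12, 11 and 7. These spans also hold 3 and 7 other coding genes. A summit lay within 1000 bp of a TSS for 2, 3 and 3 members of the 47E cluster, and for 4, 5 and 2 of the 49A cluster. The cluster of Cpr65Au to Cpr65Az, which also holds 11 other coding genes over 30.3 kb, had 7, 10 and 6.

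Twdl clusters stood apart from Cpr clusters in the full lists. The 10 Cpr clusters held 25.3, 24.8 and 19.0 summits per 100 kb in replicates 1 to 3 (mean 23.0 ± 3.51, SD, n = 3), close to the 22.4 per 100 kb of the arms as a whole. They were not alike, since that of Cpr76Ba to Cpr76Bd held 2, 1 and 2 summits over 22.7 kb with flanks. None of its 4 members had a summit within 1000 bp of a TSS in any list. The 3 Twdl clusters, which hold 19 genes, had 1 summit in replicate 1, 1 in replicate 2 and 0 in replicate 3, a mean of 1.33 ± 1.15 per 100 kb (SD, n = 3). With flanks, the Cpr clusters cover 189 kb of the 239 kb of all clusters, so raw counts are not over like spans. The pooled list had 44 summits in the Cpr clusters (23.2 per 100 kb) and 0 in the Twdl clusters. The optimal list had 5 (2.64 per 100 kb) and 0, too few over the smaller Twdl span to tell the families apart. The families differed in all 3 replicates by more than the spread between replicates, but the Twdl value rests on 3 clusters, which are too few to speak for the family, and why they differ was not tested.

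The cluster with the most genes runs from TwdlM to TwdlD, 12 genes in 21.9 kb on 3R with no other coding gene between them. TwdlD is the gene of the original Tweedle mutants, whose larvae and pupae are short and stout. The only summit of any list in its span with flanks was in replicate 1, 679 bp from the start of TwdlM and outside the genes, at 0.178 times the median of the best peaks and so close to the bottom of its list. The median distance of the 12 genes to the nearest summit was 10.9, 17.0 and 19.2 kb in the full lists of replicates 1 to 3. It was 19.1 kb in the pooled list and 25.5 kb in the optimal list, where all coding genes had 8.66 kb. For the full and pooled lists no such distance was computed over coding genes. The 4 genes from TwdlX to Twdlalpha on the X chromosome had no summit in any list over the 15.3 kb of their span with flanks. TwdlF to TwdlV on 3R, the remaining cluster, held 1 summit, in replicate 2, 864 bp from TwdlF and at 0.209 times. As examples of such promoters, the 300 bp at TwdlD (chr3R:26639775-26640074) and TwdlF (chr3R:4246770-4247069) are shown on the plus strand, both genes' own strand, from 250 bp before the start, with the same marks.
Promoter of TwdlD: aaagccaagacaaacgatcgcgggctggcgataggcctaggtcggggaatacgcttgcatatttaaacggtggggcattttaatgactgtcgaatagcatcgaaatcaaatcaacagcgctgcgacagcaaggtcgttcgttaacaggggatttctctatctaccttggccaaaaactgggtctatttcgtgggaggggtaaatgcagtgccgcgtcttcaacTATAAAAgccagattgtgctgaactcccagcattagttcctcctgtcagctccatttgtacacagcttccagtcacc
Promoter of TwdlF: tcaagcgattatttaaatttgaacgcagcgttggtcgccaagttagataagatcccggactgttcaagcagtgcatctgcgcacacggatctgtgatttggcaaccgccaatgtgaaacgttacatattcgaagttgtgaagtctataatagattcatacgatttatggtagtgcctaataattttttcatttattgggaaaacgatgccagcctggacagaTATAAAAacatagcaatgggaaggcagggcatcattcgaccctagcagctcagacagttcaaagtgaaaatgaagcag
Each has TATAAAA shortly before the start, as in the promoter of Cpr72Eb. The promoters shown are not typical in this, since 9 of 25 Twdl genes had it in the 45 bp before the start. The GC contents were 48.7% and 41.7%.

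In the full lists, Cpr genes came closer to other genes than in the optimal list. The pooled list had a summit within 1000 bp of a TSS for 34 members (35.8%), of which 32 were among the 70 Cpr genes (45.7%) and 2 among the 25 Twdl genes, against 47.9% of all coding genes. Replicate 1 had one for 33 members (34.7%, all coding genes 52.8%), replicate 2 for 38 (40.0%, all coding genes 48.8%) and replicate 3 for 30 (31.6%, all coding genes 52.0%). The mean was 35.4 ± 4.25% for members and 51.2 ± 2.10% for all coding genes (SD, n = 3), and the ranges did not overlap. Among the 5048 best peaks, the counts were 4 in replicate 1 (all coding genes 18.4%), 3 in replicate 2 (18.0%) and 2 in replicate 3 (17.8%), or 3.16 ± 1.05% of members and 18.1 ± 0.301% of all coding genes (SD, n = 3). By locus, 22 of 42 (52.4%) had a member with a summit in the pooled list. A locus of several genes has more starts than 1 gene, so this share has no like background. No replicate list had a summit near 42 members (44.2%), 23 of them Cpr genes and 19 Twdl genes, against 30.4% of coding genes. The remaining 35 had one in 1 or 2 of the lists.

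A summit in all 3 full lists was found for 18 members (18.9%), against 34.3% of all coding genes. All 18 were Cpr genes, and they lay in 15 of the 42 loci. In 7 of the 18, the summits of the replicates lay within 200 bp of each other, and in the others the lists may hold different peaks. Most of these signals were weak. The lowest peak of a list stands at 0.176, 0.154 and 0.171 times the median of the 5048 best in replicates 1 to 3, and 16 of the 18 members had a mean below that of Cpr62Ba.

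Cpr73D came next after Cpr62Ba, at 1.04, 0.589 and 0.502 times the median in replicates 1 to 3 (mean 0.711 ± 0.290, SD, n = 3), with replicate 1 high and summits up to 949 bp apart. Cpr49Ah stood at 0.371, 0.586 and 0.448 times (mean 0.469 ± 0.109), with summits on both sides of the start. Cpr64Aa was at 0.395, 0.606 and 0.377 times (mean 0.460 ± 0.127), and its summits lay within 59 bp. The replicate values of those 3 genes overlapped. Cpr47Ec reached 0.696 times in replicate 1 but 0.248 and 0.222 times in replicates 2 and 3 (mean 0.389 ± 0.267). Cpr66D, which encodes another protein of the corneal lens, was at 0.410, 0.345 and 0.312 times (mean 0.356 ± 0.0501), also with summits within 59 bp. With lower means still, Cpr97Eb, Cpr51A, Cpr67Fa1, Cpr47Ed and Cpr65Ea had means between 0.287 and 0.331 times, which overlap in their replicates. Cpr67Fa1 had the closest summits of all, 484, 480 and 485 bp from its start.

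**Figure D5:**
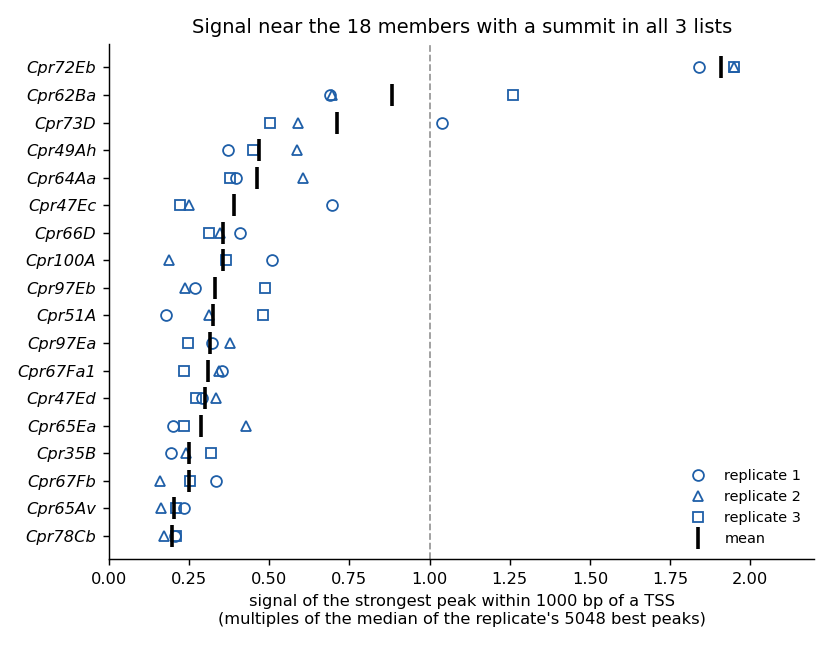
Signal of the strongest peak within 1000 bp of a TSS, in multiples of the median of the replicate's 5048 best peaks, for the 18 members with a summit in all 3 full lists, with replicates as open symbols and means as black bars. The dashed line is the median of the best peaks: Cpr72Eb is above it in all 3 replicates, Cpr62Ba and Cpr73D in 1 each, and the other 15 in none.

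Member promoters held a TATA-box sequence close to the start more often than promoters at large. TATAAAA on the gene's own strand lay in the 45 bp before the 5′ end of 34 of 95 members (35.8%), against 4.90% of all coding genes. It was found in 25 of 70 Cpr genes (35.7%) and 9 of 25 Twdl genes. On either strand of the 300 bp promoter, 48.4% of members had it, against 24.2%. GAGAG, the core bound by GAGA factor, was in 31.6% of member promoters and 29.7% of all, and AAGGTCA, the core bound by the nuclear receptor FTZ-F1, in 0 of 95 and 2.11% of all. The promoters of members had a mean GC content of 44.8%, against 39.1%. Members of a cluster are related copies, so these are not independent promoters, and a match does not show a bound site.

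Shares were also set beside those of other genes of like promoter, number of starts or length. Among coding genes outside the families, an optimal summit lay within 1000 bp of a start in 7.23% of the 650 with TATAAAA in that place, and in 18.7% of the 13200 without it. Of the members with TATAAAA there, all of which have a single TSS, 1 of 34 (2.94%) had one, Cpr72Eb, against 4.23% of the 567 other genes with both features. Among genes with 1 TSS of any promoter type, the members had 1.15% and the other coding genes 12.9%. In the genes no longer than the median member, the shares were 2.08% and 7.72%. The median distance to an optimal summit was 11.9 kb for the 34 members with TATAAAA and a single TSS, and 13.1 kb for the 567 other genes. With all 3 features, 1 of 14 members (7.14%) and 3.37% of the 297 other genes had one, so there the order was the other way, on 1 gene. Among members themselves the shares hardly differed by promoter type, at 1 of 34 with TATAAAA and 1 of 61 (1.64%) without it. A summit in all 3 full lists was found for 23.5% of the members with TATAAAA and a single TSS, against 11.3% of the other genes with both, and for 23.5% of members with TATAAAA, against 17.4% of other genes with it. For short genes these shares were 16.7% and 16.3%, and for genes with 1 TSS 16.1% and 25.6%. For members without TATAAAA the share in all 3 lists was 16.4%, against 35.2% of other genes without it. The lower share of members in all 3 lists was thus seen among genes with 1 TSS and among genes without TATAAAA, and not among short genes or those with TATAAAA. The part of these features in the low shares was not tested.

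Few summits were found at cuticular protein genes with other names. None of 35 listed genes (the Lcp, Acp, Ccp84, Edg and obst genes, resilin and others) had one at that distance (0 of 35, against 18.0% of coding genes), and their median distance was 22.5 kb. By their symbols many are neighbours, such as the Ccp84 genes. The Lcp65A genes are named for the same region as the cluster of Cpr65Au to Cpr65Az. These genes were not counted by locus, so the 35 are not independent of each other or of the members. In 4 of them (11.4%), obst-A, obst-B, obst-E and Peritrophin-A, all 3 full lists had a summit, against 34.3% of all coding genes.

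Listed enzymes and regulators of cuticle formation had a summit more often than the cuticular protein genes. Of 26 genes of chitin metabolism, tanning and the apical matrix, 5 (19.2%) had a start that close to an optimal summit, a share near that of all coding genes. They were kkv, the chitin synthase, mmy and Gfat2, enzymes of the precursor UDP-N-acetylglucosamine, Cht7, a chitinase, and tyn, a zona pellucida domain protein of the apical matrix. Cht7 was the strongest, at 2.08, 1.63 and 1.66 times the replicate medians (mean 1.79 ± 0.252, SD, n = 3), and kkv the weakest, at 0.754, 0.632 and 0.405 times (mean 0.597 ± 0.178). Of 20 regulators, 8 (40.0%) had one, against 18.0% of all coding genes. Among them were grh (Grainyhead, an activator of epidermal barrier genes), at 1.22, 2.51 and 1.97 times (mean 1.90 ± 0.652), and Blimp-1, a repressor that times the prepupal response, at 0.630, 0.457 and 0.919 times (mean 0.669 ± 0.234). The others act in the ecdysone cascade, namely usp and EcR, the receptor's subunits, and Eip93F, ftz-f1, Eip74EF and br, with means from 0.691 to 1.17 times. Among these the replicates spread most for ftz-f1 (SD 0.633) and br (SD 0.356), and least for usp (SD 0.0221) and EcR (SD 0.0312). The 12 regulators without one included Hr3, Hr4, Hr38 and Hr39, at 2.90, 1.79, 1.59 and 39.8 kb from the nearest optimal summit. The lists were not matched to the members for gene length or number of starts.

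Sequence around the starts was mostly unique in the genome. For 77 of 95 members every stretch of 36 bp within 1000 bp of a TSS occurs once in the genome, and 6 members had under 90% of such stretches unique. Cpr65Ax1 and Cpr65Ax2, near-identical copies, had 36.4% and 36.8%, and neither had a summit within 1000 bp in any list. The remaining members under 90% all lay in the cluster from TwdlM to TwdlD, with shares from 79.3%, at TwdlL, to 89.7%. How reads with several placements were treated is not stated in the sources used here, so the part of repeats in these counts was not tested.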

How the data were processed

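Whole prepupae expressing Ouib-GFP were profiled by ChIP-seq with an anti-GFP antibody in 3 biological replicates, per the labels. Peak lists on dm6 were used. The authors' file lists name as inputs an alignment and a control alignment for every replicate list and all 3 alignments for the pooled list, and say that the optimal list came from thresholding by irreproducible discovery rate. Aligner, caller and read length were not given in the sources used. The authors' deposited signal value has no stated scale, so it was divided by its median over the 5048 best peaks of the replicate. The lists hold no read counts, and depth is unknown. The dm3 lists were not used here.

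Gene models came from Ensembl release 115 and genome sequence from the NCBI record of dm6, and positions are counted from 1. All annotated starts of a gene were used, and distances are from summits. Members, lists and rules were chosen with earlier results of these data known. The rule for named genes took members with an optimal summit within 1000 bp, the 12 of highest pooled signal among those in all 3 lists, those nearest to optimal summits in clusters, the ends of clusters of 5 or more genes, and other listed cuticular protein genes with an optimal summit. Enzymes and regulators with such a summit, and Cpr72Ea, Cpr78Cc, Cpr65Ax1, Cpr65Ax2, TwdlF, TwdlV, TwdlX, Twdlalpha, TwdlL, TwdlU, Cpr65Ec, Cpr72Ec, Cpr76Bd, Cpr97Ea, CG11309, CG13297, CG34305, obst-A, obst-B, obst-E and Peritrophin-A were named after their values were seen, and the sequences shown, the groups by promoter type and length, and the intervals around starts were chosen then too. Of 38, 30 and 20 listed names, 36, 26 and 20 matched the annotation, giving 35, 26 and 20 genes; straw and pale are names of stw and ple, which are counted. Distance and overlap steps were tested on simulated data. Replicates 2 and 3 shared 1 identical interval and the other pairs 0. Python 3.11.15, numpy 2.4.6 and pandas 2.3.3 were used. Alternatives covered windows, thresholds, locus gaps and each replicate left out.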

Additional observations from a re-analysis of the deposited data

How the results depend on the processing

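Of 45 alternatives, 25 kept the value within 1.5 times for a count or within 1 SD between replicates otherwise, and 20 moved it. The 2 members with an optimal summit near a TSS became 0 with a window of 500 bp, 6 with 2000 bp (all coding genes 23.1%), 21 with 5000 bp, 6 with gene bodies (24.3%), 1 with the outermost start only and 0 among the 500 strongest peaks (2.98%). The count stayed at 2 with peaks found in all 3 replicates and with any replicate left out, where leaving one out means keeping optimal peaks found in both others. Loci went to 0, 14 and 0 with 500 bp, 5000 bp and the 500 strongest peaks. Of the 5 summits in clusters, 0 were among the 500 strongest, and 4 to 5 were left without a replicate. The 34 members in the pooled list became 19 with 500 bp (40.2%) and 10 with its best 10000 peaks (28.4%). The 18 members in all 3 lists became 7 with 500 bp (26.7%) and 3 with the best 10000 peaks (20.5%). With a replicate left out, 21 to 24 were in both other full lists (38.5 to 40.9%). The median distance was 21.3 kb with peaks found in all 3 replicates (all coding genes 13.5 kb) and 19.2 to 20.8 kb without a replicate (11.7 to 12.2 kb), where fewer peaks were left. The mean of 3.00 members with a best peak became 1.33 with 2000 and 8.33 with 10000 best peaks (8.56% and 29.2% of coding genes), and 2.50 to 3.50 without a replicate. Each share of members under these settings was below that of all coding genes. No paired analysis was possible because the series holds 1 group. Depth is unknown, so a missing peak may be a weak one.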

Other observations

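TwdlU lies beside TwdlF and is annotated as a pseudogene, so it is not counted among the 95 genes. It had an optimal summit 244 bp from its start, at chr3R:4243164-4243559, closer than any counted member, and 216 bp from a TSS of CG34305. The peak ranked 4849 of 5048, at 0.376, 0.612 and 0.593 times the replicate medians (mean 0.527 ± 0.131, SD, n = 3).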
